A study of Mus musculus with 8 samples.

Results

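Fatty acid binding and lipid uptake was examined in mouse macrophages as a group of 9 genes, which were Fabp4, Fabp5, Pparg, Cd36, Lpl, Msr1, Olr1, Scarb1 and Plin2. The genes were picked by name with the difference between LPS and LPS + UDCA in these same libraries already known. Their values in this contrast are therefore given as a description, and no p-value is printed for them. Confidence intervals and counts past thresholds come from the fit to all genes tested and are no test of the genes so chosen. All 9 were found among the 55487 genes of the expression table, and 7 of them averaged 1 TPM or more over the 8 libraries and so were among the 11796 genes tested. TPM divides the reads of a gene by its length and scales each library, so levels of different genes can be set side by side. The table keeps no record of read numbers, so sequencing depth is unknown and the errors are the spread between libraries.

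J774A.1 is a macrophage line derived from a mouse tumor. All 8 libraries came from cells exposed for 24 h to LPS, a component of the outer membrane of Gram-negative bacteria to which macrophages respond, at 1 μg/mL. Of these, 4 came from cells given LPS alone and 4 from cells also given ursodeoxycholic acid (UDCA), a secondary bile acid, at 1 mM. A single cell line was used and libraries of cells without LPS were not analysed here, so each value compares UDCA with its absence on an LPS background. Nothing in the labels says that the 4 libraries of a group were separate cultures, and p-values then measure only the spread between these libraries, which may be technical.

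Fatty acid binding proteins carry long-chain fatty acids and related lipids inside the cell. FABP4, the adipocyte and macrophage form, and FABP5, the epidermal form, are the members of this family known from macrophages, and Fabp4 is a classical target gene of the nuclear receptor PPARγ. Macrophages take up modified lipoproteins through scavenger receptors, release fatty acids from lipoproteins with the secreted enzyme lipoprotein lipase and store the lipid in droplets coated by perilipins, a process known from foam cells.

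The genes encoding the 2 fatty acid binding proteins were far lower with UDCA, while those of the lipase and of the droplet coat were moderately higher. In mean TPM, Fabp4 was 71.1-fold lower and Fabp5 was 12.1-fold lower. Msr1 and Scarb1 were lower at 0.644 and 0.65 times their LPS level, Lpl and Plin2 were higher at 1.66 and 1.56 times, and Cd36 stood at 0.916 times with overlapping libraries. Pparg and Olr1 were at or near 0 in every library. Of the 7 genes tested, 2 were lower and 0 were higher past a fold change of 2 and a false discovery rate (FDR) of 0.05 in limma, where 8.44% of all tested genes were lower and 8.71% were higher. Without the fold change minimum, 4 were lower and 2 were higher, beside 3807 lower and 4741 higher of all 11796 genes tested. The libraries of the groups were apart in 6 of the 7, against 66.8% of all tested genes. Nothing is read from these counts, since the genes were chosen on this contrast. The median log2 fold change was -0.62 over the 7 genes and 0.082 over all genes tested. Because 1 is added before the logarithm, log2 fold changes of weakly expressed genes come out smaller than the ratio of their TPM.

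**Figure D1:**
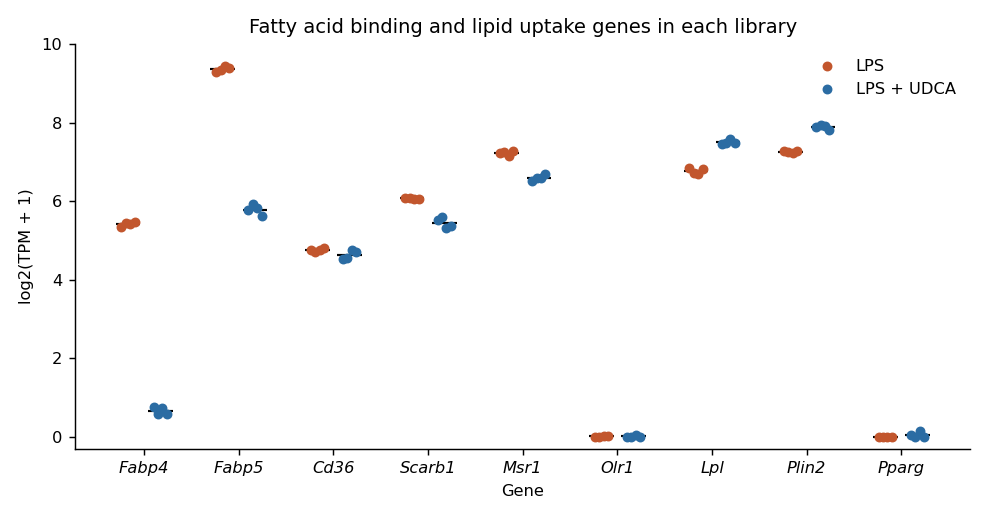
Expression of the 9 genes on the log2(TPM + 1) scale. Each point is 1 library, orange for LPS and blue for LPS + UDCA, and the bar is the mean of 4 libraries. Fabp4 was near 0 with UDCA, Fabp5 was highest only with LPS, and Olr1 and Pparg lay at the floor in both groups.

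Promoter sequence was available from RefSeq (GRCm38.p6) for 4 of the 9 genes, namely Pparg, Cd36, Olr1 and Plin2. Plin2 and Cd36 are shown because both are known PPAR target genes that were well expressed here, in cells where Pparg was near 0. Each line is the stretch of 250 bases just before a transcription start, in the direction of the gene. It covers chr4:86670060-86670309 on the minus strand for Plin2 and chr5:17835897-17836146 on the minus strand, at a start site within the Cd36 gene, for Cd36. Capitals mark AGGTCA, the core motif of many nuclear receptors, here read as TGACCT from the other strand.
Plin2: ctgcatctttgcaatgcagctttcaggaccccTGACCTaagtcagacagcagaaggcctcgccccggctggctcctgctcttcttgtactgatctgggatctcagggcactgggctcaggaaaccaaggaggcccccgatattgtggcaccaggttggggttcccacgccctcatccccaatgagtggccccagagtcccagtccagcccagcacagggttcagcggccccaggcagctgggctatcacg
Cd36: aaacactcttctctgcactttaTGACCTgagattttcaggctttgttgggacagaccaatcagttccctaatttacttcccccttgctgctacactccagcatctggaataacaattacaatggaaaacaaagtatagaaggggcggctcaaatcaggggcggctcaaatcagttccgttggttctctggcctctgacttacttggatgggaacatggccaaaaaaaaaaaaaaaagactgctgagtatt
The motif lay 218 bases before the start of Plin2 and 228 bases before that of Cd36. At least 1 copy occurred in 14.0% of all 32851 promoter windows of the same length when both strands were searched. The direct repeat AGGTCANAGGTCA, the element bound by PPAR with its partner RXR, was present in 0.0335% of windows and in none of those of Pparg, Cd36, Olr1 and Plin2. Only exact matches within these 250 bases were searched. Letter matches and their absence are a description only, and show neither binding nor the lack of an element.

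Fabp4 (ENSMUSG00000062515) lies on chromosome 3 of GRCm38 from 10204088 to 10208576 on the minus strand. Its TPM was 39.82, 42.7, 41.79 and 43.42 in LPS replicates 1 to 4 and 0.69, 0.51, 0.67 and 0.49 in LPS + UDCA replicates 1 to 4. The groups were widely separated, and all 4 UDCA libraries were under 1 TPM. The means were 41.9 ± 1.56 and 0.590 ± 0.105 TPM (SD, n = 4), with a log2 fold change of -4.76 (SE 0.071, 95% confidence interval -4.92 to -4.60). Ranked from the lowest log2 fold change of the 11796 genes, Fabp4 was number 2. Among tested genes, Fabp4 moved from percentile 76.3 of expression level with LPS to percentile 1.2 with UDCA. Tested genes averaged 1 TPM or more over all libraries, so Fabp4 was among them only through its LPS level. A gene under 1 TPM with UDCA enters this set only if it is higher with LPS, so the low percentile follows partly from the filter. The coefficient of variation between libraries was 3.72% with LPS and 17.7% with UDCA, where all values were under 1 TPM and read numbers are unknown.

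Fabp5 (ENSMUSG00000027533) lies 187.5 kb from Fabp4 on chromosome 3, from 10012548 to 10016607 on the plus strand. Its TPM was 618.46, 640.77, 689.24 and 674.0 in LPS replicates 1 to 4 and 54.2, 59.55, 55.67 and 48.11 in LPS + UDCA replicates 1 to 4. No library of either group came near the other group, and the gene stayed well expressed with UDCA. The means were 656 ± 32.0 and 54.4 ± 4.75 TPM (SD, n = 4), with a log2 fold change of -3.57 (SE 0.064, 95% confidence interval -3.72 to -3.42). It was number 10 in the same ranking. Its level was at percentile 98.0 of tested genes with LPS and 81.3 with UDCA. The ratio of Fabp5 to Fabp4 in TPM was between 15.0 and 16.5 in the LPS libraries and between 78.6 and 116.8 in the UDCA libraries.

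Part of the Fabp5 signal is uncertain because near-identical copies exist in the genome. Of the 31-base words in the Fabp5 transcript, 33.1% also occur in another gene, against 0% for Fabp4, Cd36, Scarb1 and Pparg. The processed pseudogene Gm6166, on chromosome 9 from 57483963 to 57484371, shares 260 of its 379 words with Fabp5, and it is named after its values were seen. Its TPM was 415.41, 430.74, 455.67 and 457.61 in LPS replicates 1 to 4 and 36.43, 51.07, 42.7 and 37.9 in LPS + UDCA replicates 1 to 4. The mean of Gm6166 was thus 10.5-fold lower with UDCA, close to the fold of Fabp5, and reads could have been split between the 2 genes. The sum of both was 1095.0 ± 52.0 TPM with LPS and 96.4 ± 10.8 TPM with UDCA (SD, n = 4), which is 11.4-fold lower. TPM is per length, and Gm6166 has 379 words against 957 in the Fabp5 transcript. The sum is therefore not the level that Fabp5 would have with all these reads counted to it. The other 4 genes that share words with Fabp5 were at 0.67 TPM or below in every library.

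**Figure D2:**
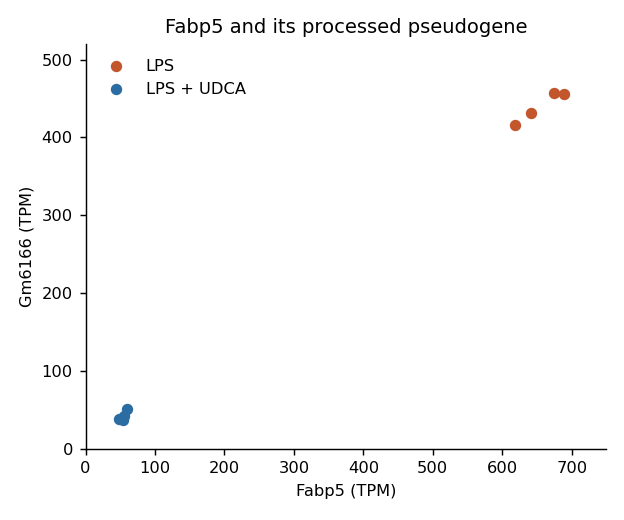
TPM of Fabp5 (horizontal axis) and of its processed pseudogene Gm6166 (vertical axis) in each of the 8 libraries. LPS libraries (orange) lie at 618.46 to 689.24 TPM of Fabp5 and 415.41 to 457.61 TPM of Gm6166, and LPS + UDCA libraries (blue) cluster near the origin.

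Of the other FABP family genes, Fabp3, the heart-type form, was the only one that averaged 1 TPM or more. Its TPM was 5.77, 4.79, 3.86 and 4.55 in LPS replicates 1 to 4 and 1.03, 0.57, 1.42 and 0.88 in LPS + UDCA replicates 1 to 4. The groups did not overlap, and Fabp3 was downregulated at a low level (log2 fold change -1.55, SE 0.157, limma adjusted p = 1.87e-05). Of the 31-base words of Fabp3, 35.2% also occur in the processed pseudogene Fabp3-ps1, which was at up to 0.52 TPM with LPS and up to 1.45 TPM with UDCA, and reads could have been split between them. Fabp1 was listed at 0.22 TPM in LPS + UDCA replicate 2 and at 0 elsewhere. Fabp2, Fabp6, Fabp7, Pmp2, Fabp9 and Fabp12 were listed at 0 in all 8 libraries. Together, Fabp3, Fabp4 and Fabp5 gave 664.05 to 734.89 TPM with LPS and 49.48 to 60.63 TPM with UDCA, and Fabp5 held at least 93.1% of that sum in each library. No 31-base word was shared between Fabp3, Fabp4 and Fabp5.

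Fabp4 and Fabp5 lie in a cluster with the family members Pmp2, Fabp9 and Fabp12. In the cluster and within 100 kb of it, 4 other genes were tested. Impa1, an inositol monophosphatase gene, was at 22.09, 19.34, 23.89 and 26.26 TPM with LPS and at 14.88, 14.73, 14.63 and 18.52 TPM with UDCA (limma log2 fold change -0.52 with an adjusted p of 0.00167), below the fold change minimum. For Zfand1, limma gave 0.24 on the log2 scale with an adjusted p of 0.114. Chmp4c, a gene of the membrane remodeling machinery, was upregulated (log2 fold change 1.52, limma adjusted p = 0.0167), although its LPS libraries spread from 15.2 to 87.81 TPM. The processed pseudogene Gm37421 gave 1771.01, 1346.11, 636.36 and 0 TPM with LPS and 387.12, 1884.18, 377.07 and 1200.39 TPM with UDCA. Its groups overlapped widely (log2 fold change 1.94, limma adjusted p = 0.435), and without LPS replicate 4 the log2 fold change was -0.60. These 4 neighbors were named after their values were seen.

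Cd36 (ENSMUSG00000002944, chromosome 5, 17781690 to 17888801) encodes a scavenger receptor that also takes up long-chain fatty acids. Its TPM was 25.97, 25.12, 25.93 and 27.2 in LPS replicates 1 to 4 and 21.95, 22.35, 25.94 and 25.21 in LPS + UDCA replicates 1 to 4. Libraries of the groups overlapped, with UDCA replicates 3 and 4 inside the LPS range. The means were 26.1 ± 0.858 and 23.9 ± 2.01 TPM (SD, n = 4), with a log2 fold change of -0.12 (SE 0.064) and a 95% confidence interval from -0.27 to 0.02.

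Scarb1 (ENSMUSG00000037936, chromosome 5, 125277087 to 125341094) encodes SR-B1, the receptor for high-density lipoprotein. Its TPM was 66.56, 66.66, 65.71 and 65.55 in LPS replicates 1 to 4 and 44.82, 47.56, 39.17 and 40.24 in LPS + UDCA replicates 1 to 4. All UDCA libraries were below all LPS libraries, with a wider spread (coefficient of variation 9.16% against 0.864%). The means were 66.1 ± 0.571 and 42.95 ± 3.93 TPM (SD, n = 4) and the log2 fold change was -0.62 (SE 0.062). The gene Gm42633 overlaps Scarb1, and reads of overlapping genes may be shared.

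Msr1 (ENSMUSG00000025044, chromosome 8, 39581685 to 39642673) encodes scavenger receptor A, which binds modified low-density lipoprotein. Its TPM was 148.02, 152.53, 140.9 and 154.09 in LPS replicates 1 to 4 and 90.52, 96.19, 95.2 and 101.71 in LPS + UDCA replicates 1 to 4. The groups were apart. The means were 149 ± 5.91 and 95.9 ± 4.59 TPM (SD, n = 4), with a log2 fold change of -0.63 (SE 0.046). Olr1, on chromosome 6 from 129485244 to 129507165, encodes the oxidized lipoprotein receptor LOX-1. LPS replicates 1 to 4 gave 0, 0, 0.02 and 0.02 TPM, and LPS + UDCA replicates 1 to 4 gave 0, 0, 0.04 and 0 TPM. The receptors therefore split into Msr1 and Scarb1, lower in every UDCA library, Cd36, with overlapping libraries, and Olr1, at or near 0.

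Lpl (ENSMUSG00000015568, chromosome 8, 68880491 to 68907448) encodes lipoprotein lipase, which frees fatty acids from triglyceride-rich lipoproteins. Its TPM was 114.04, 104.31, 102.85 and 111.71 in LPS replicates 1 to 4 and 174.44, 177.85, 190.63 and 177.34 in LPS + UDCA replicates 1 to 4. All 4 UDCA libraries were above all LPS libraries. The means were 108 ± 5.48 and 180.1 ± 7.2 TPM (SD, n = 4), and the log2 fold change was 0.73 (SE 0.046, 95% confidence interval 0.63 to 0.83).

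Plin2 (ENSMUSG00000028494, chromosome 4, 86648386 to 86670060) encodes perilipin 2, a coat protein of lipid droplets. Its TPM was 152.75, 150.71, 147.71 and 155.32 in LPS replicates 1 to 4 and 237.8, 244.95, 238.39 and 221.79 in LPS + UDCA replicates 1 to 4. As for Lpl, the groups were apart, and the direction was opposite to that of Fabp4 and Fabp5. The means were 152 ± 3.22 and 236 ± 9.84 TPM (SD, n = 4), and the log2 fold change was 0.63 (SE 0.038, 95% confidence interval 0.55 to 0.72). Gm12551 shares 8.45% of the words of the Plin2 transcript and was at 0.23 TPM or below.

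**Figure D3:**
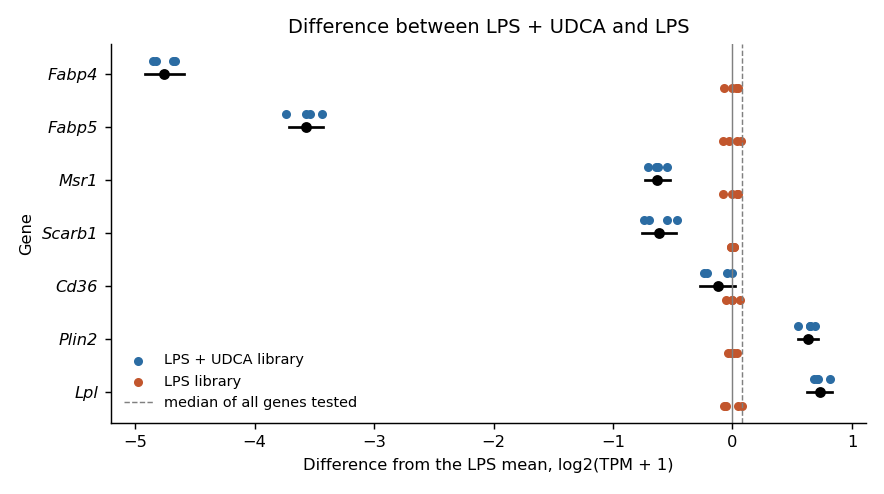
Difference from the LPS mean on the log2(TPM + 1) scale for the 7 genes averaging 1 TPM or more. Colored points are single libraries, black points with lines are the fitted log2 fold change with its 95% confidence interval, and the dashed line is the median of all genes tested (0.082). Fabp4 (-4.76) and Fabp5 (-3.57) lie far to the left, and Lpl (0.73) and Plin2 (0.63) to the right.

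Pparg (chromosome 6, 115360951 to 115490399) encodes PPARγ, the lipid-activated receptor of adipocytes and alternatively activated macrophages. The LPS libraries all listed it at 0, and LPS + UDCA replicates 1 to 4 gave 0.03, 0, 0.11 and 0 TPM. Ppara was listed at 0 in all 8 libraries. Ppard, the widely expressed family member, was the PPAR gene with clear expression, at 35.6 ± 1.73 TPM with LPS and 31.3 ± 0.543 TPM with UDCA (SD, n = 4), a log2 fold change of -0.18 (limma adjusted p = 0.00626) that did not reach the fold change minimum. Of the RXR partners, Rxrb had a log2 fold change of -0.05 (limma adjusted p = 0.322), and Rxra was at 0.725 ± 0.245 and 2.34 ± 0.507 TPM (log2 fold change 0.95), just under the minimum with a pseudocount of 1 but past it with one of 0.1 (1.58).

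The order of levels was rearranged. With LPS, Fabp5 was first, followed by Plin2, Msr1, Lpl, Scarb1, Fabp4 and Cd36, and among these neighbors only Plin2 and Msr1 overlapped between libraries. With UDCA, Plin2 was first, followed by Lpl, Msr1, Fabp5, Scarb1, Cd36 and Fabp4, with no overlap between neighbors. The 9 genes summed to 1198 ± 29.7 TPM with LPS and 633.5 ± 16.5 TPM with UDCA (SD, n = 4). Fabp5 held 53.1% to 56.8% of that sum with LPS and 7.82% to 9.18% with UDCA. Lpl and Plin2 together held 20.6% to 22.9% with LPS and 64.9% to 66.4% with UDCA.

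**Figure D4:**
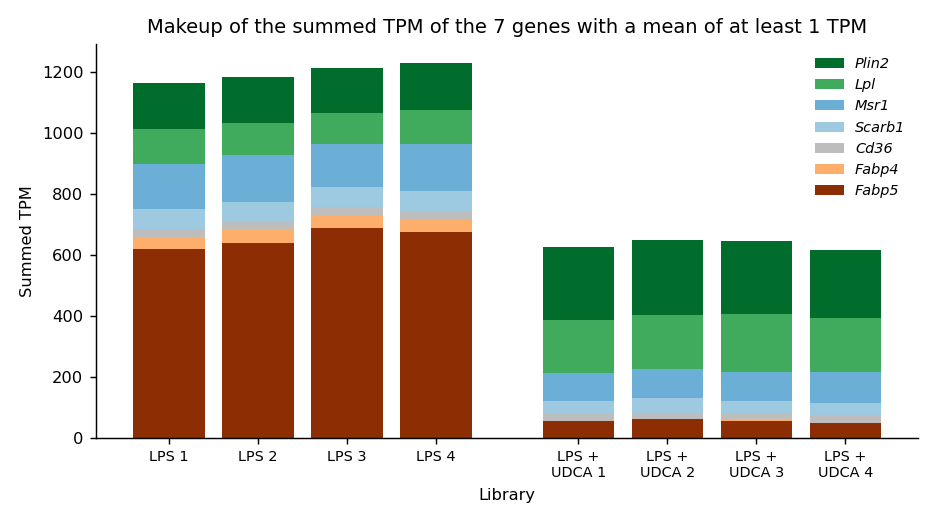
Summed TPM in each library of the 7 genes averaging 1 TPM or more, stacked by gene from 0. Fabp5 (dark brown) makes up 53.1% to 56.8% of the 9-gene sum in LPS libraries and 7.82% to 9.18% in LPS + UDCA libraries, where Lpl and Plin2 (green) take 64.9% to 66.4%.

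Genes were ranked by how near their profile over the 8 libraries was to that of Fabp4. The measure was the root mean square difference of log2(TPM + 1) after subtracting the LPS mean of each gene. The nearest were Ccl7 (0.275), Plk1 (0.364), Edn1 (0.572), Ccl2 (0.788) and Aurkb (0.792). Ccl7 and Ccl2 encode monocyte chemoattractants, Plk1 and Aurkb mitotic kinases and Edn1 endothelin 1. Their log2 fold changes were -4.43, -4.37, -3.95, -3.65 and -3.65. The measure rests largely on the difference between the groups, so fold changes close to that of Fabp4 follow from the ranking.

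Other genes of lipid uptake and handling were taken from 8 lists, with 130 genes beside the 9, of which 75 were tested. Of these, 6 were upregulated and 8 downregulated past both thresholds, where 8.71% of all tested genes were higher and 8.44% lower. The same shares are the background for the counts of single lists below. The median log2 fold change was 0.064, against 0.082 over all genes tested. With median-of-ratios scaling, 2 were upregulated and 11 downregulated, beside 810 higher and 1167 lower of all 11796 genes tested. The lists were drawn up with results of these libraries known.

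Of the PPARs, their partners and cofactors, 12 of 15 were tested, 1 was upregulated and 1 downregulated, with a median log2 fold change of 0.29. Crebbp, an acetyltransferase coactivator, rose from 4.26 ± 0.596 to 11.96 ± 0.553 TPM (SD, n = 4). Ppargc1b, which encodes the coactivator PGC-1β, fell from 3.22 ± 0.609 to 0.412 ± 0.0492 TPM and is named after its values were seen. Of 30 other PPAR target genes, 16 were tested, 2 were upregulated and 3 downregulated, with a median of -0.23. Cyp27a1, the sterol 27-hydroxylase, fell from 9.905 ± 0.988 to 1.15 ± 0.144 TPM (log2 fold change -2.34, limma adjusted p = 6.64e-08). The fatty acid transporter gene Slc27a1 fell by 1.11 on the log2 scale, and Fabp3 was the third. Me1, the cytosolic malic enzyme, rose from 24.98 ± 1.24 to 52.0 ± 2.33 TPM, and Nr1h3, which encodes the oxysterol receptor LXRα, from 6.335 ± 1.00 to 14.1 ± 1.53 TPM. Both rises were close to the fold change minimum (log2 fold changes 1.03 and 1.05), and with median-of-ratios scaling both were under it (0.92 and 0.95).

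For fatty acid transport and activation, 10 of 16 genes were tested, 0 were upregulated and 2 downregulated in limma, with a median log2 fold change of -0.26. At an unadjusted p under 0.05, 3 were higher and 5 lower, a threshold passed by 41.3% of all tested genes in the higher and 33.2% in the lower direction. Slc27a1 fell from 128 ± 5.26 to 58.5 ± 1.87 TPM, and Dbi, the acyl-CoA binding protein, from 262 ± 9.80 to 126 ± 9.64 TPM (SD, n = 4), although with quantile normalization Dbi was under the fold change minimum (-0.96). For lipid droplets and neutral lipids, 16 of 26 genes were tested, 3 were upregulated and 0 downregulated in limma, with a median of 0.28. At an unadjusted p, 10 were higher and 3 lower. Dgat2, an enzyme of the last step of triglyceride synthesis, rose from 2.76 ± 0.214 to 12.75 ± 1.75 TPM (log2 fold change 1.86, limma adjusted p = 3.03e-07). Lpin1, a phosphatidate phosphatase, rose from 12.6 ± 1.28 to 26.3 ± 1.25 TPM, and its log2 fold change of 1.00 lay at the threshold, with 0.90 under median-of-ratios scaling. Lpin3, of the same family and named after its values were seen, rose from 2.44 ± 0.222 to 6.24 ± 0.407 TPM. Lpin3 was also under the fold change minimum with quantile normalization (0.99) or median-of-ratios scaling (0.99), so that Dgat2 was the 1 gene of the list called higher under either.

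Among scavenger and lipoprotein receptors, 8 of 19 were tested, 0 were upregulated and 2 downregulated in limma, with a median log2 fold change of 0.36. At an unadjusted p under 0.05, 5 were higher and 3 lower, beside 41.3% and 33.2% of all tested genes. Lrp1, a large endocytic receptor, fell from 167 ± 13.4 to 52.0 ± 8.15 TPM (log2 fold change -1.67, limma adjusted p = 1.07e-06), and Cd68, a lysosomal scavenger receptor family member, from 541.5 ± 4.48 to 205.8 ± 2.41 TPM (SD, n = 4). The list counted as regulators of lipoprotein lipase (lipase regulators below) also holds the lipase genes Lipc, which was tested, and Lipg. Of this list, 8 of 17 were tested and 0 passed both thresholds in limma, with a median of -0.68. At an unadjusted p, 2 were higher and 6 lower, beside the same shares of all tested genes. Of the genes of cholesterol efflux and LXR targets, 11 of 14 were tested, with 1 upregulated, Nr1h3, and 1 downregulated, at a median of -0.06. The latter was Abcg1, a cholesterol exporter, which fell from 11.7 ± 0.212 to 3.48 ± 0.731 TPM (log2 fold change -1.52, limma adjusted p = 2.34e-06).

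**Figure D5:**
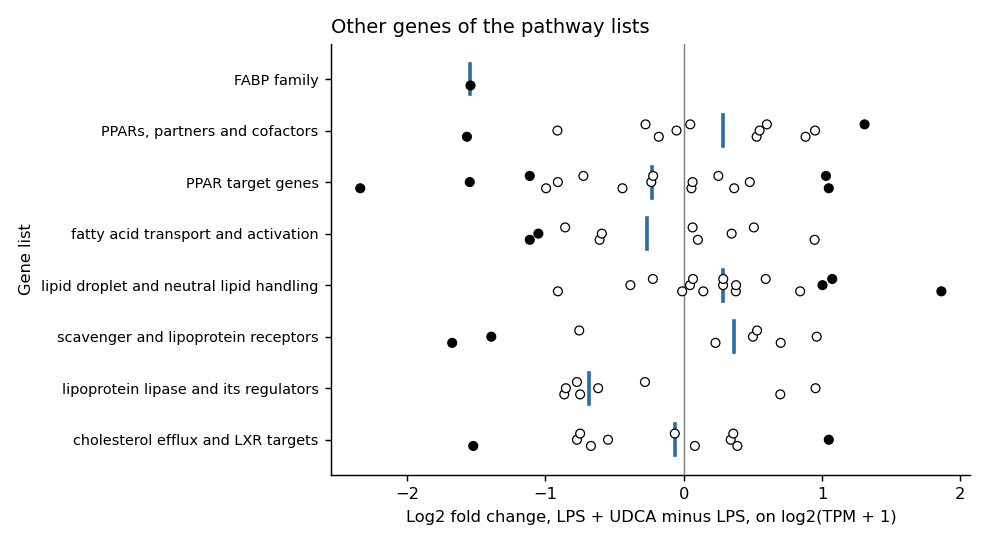
Log2 fold change, LPS + UDCA minus LPS, of each tested gene in the 8 lists, without the 9 genes chosen at the start. Each circle is a gene, filled where it passed a fold change of 2 and an FDR of 0.05, and the blue bar is the median of the list. A gene can stand in several lists, and genes on both sides of 0 are seen in each list with more than 1 tested gene.

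The libraries carried the macrophage identity of the line. Of 12 macrophage markers, 11 had a mean of at least 1 TPM and Mertk was listed at 0, and their summed level was 4826 to 5117 TPM with LPS and 2520 to 2841 TPM with UDCA. Of the 11, 2 were upregulated and 4 downregulated with UDCA, beside 8.71% and 8.44% of all tested genes. Their median log2 fold change was -0.39. Lyz2 (-2.19) and Itgam (-2.91) were lower along with Cd68 (-1.39) and Csf1r (-1.35, named after its values were seen), whereas Adgre1 (1.27) and Fcgr1 (1.48) were higher. In bulk RNA, fewer cells with a transcript and less transcript per cell cannot be told apart. Of 8 adipocyte markers, none had a mean of 1 TPM, Adipoq, Lep, Cfd, Cidea and Pck1 were listed at 0 throughout, and the sums were 0.01 to 0.28 TPM with LPS and 0.28 to 0.83 TPM with UDCA. Of 8 endothelial markers, none had a mean of 1 TPM, Tie1, Gpihbp1 and Emcn were listed at 0, and the sums were 1.76 to 2.18 TPM and 0.79 to 1.09 TPM. The part of these marker differences in the levels of Fabp4, Fabp5 and the other genes was not tested.

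Across the whole table, TPM summed to 973190 to 977485 per LPS library and 958918 to 962737 per UDCA library, and 11412 to 11730 genes reached 1 TPM. The totals were thus not equal, and each UDCA library was slightly below every LPS library. No library duplicated another in any of the 28 pairs.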

How the data were processed

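RNA sequencing of J774A.1 cells given LPS or LPS + UDCA for 24 h (4 libraries each) was analysed. The authors deposited TPM per gene for each library, kept to 2 decimals, and the unit was inferred from the column sums. The submitters' processing notes name Bowtie 0.12.2, mm10 and GRCm38, and the labels a TruSeq RNA kit. The counting program and strand setting are not given in the sources used here. Libraries were grouped by their treatment labels, whereas the methods also speak of UDCA without LPS, which was not analysed here.

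Values were transformed to log2(TPM + 1), and the 11796 genes averaging 1 TPM or more were compared with limma 3.58.1 (R 4.3.3; lmFit, then eBayes with trend). A call needed a 2-fold change and an FDR (Benjamini-Hochberg) below 0.05, the thresholds of the study's methods. Counting error could not be given, since TPM holds no depth. The 9 genes, the gene lists and the markers were chosen with earlier results of these data known. Beside the 9, the text names every FABP family gene, Ppara, Ppard, Rxra and Rxrb, the 5 genes nearest to Fabp4, and from each list the called genes averaging 5 TPM or more, up to 3 in each direction; others are marked as named after their values were seen. Positions are from GENCODE M21 on GRCm38, which holds 55141 of the 55487 listed identifiers. The procedure was tested on simulated data with independent normal noise. No shift was put in genes near 0 and far fewer genes were changed than here, so those cases were not covered. Alternatives covered normalization, pseudocount, filters, thresholds, trend, replicate block and leaving out each library. Python 3.11.15, pandas 2.3.3 and matplotlib 3.10.9 made tables and figures.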

Additional observations from a re-analysis of the deposited data

Results flagged for a closer look

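A library of a named gene was flagged where its gap to the nearest of the other 3, divided by the range of the group, exceeded Dixon's 95% critical value. This held for 7 of 82 groups of 4 values over 42 genes, and chance flags about 1 in 20 groups. Of the 9 fatty acid binding and lipid uptake genes, which gave 17 of the groups, 1 was flagged. Olr1 was at 0.04 TPM in LPS + UDCA replicate 3 and at 0 in the other 3 (gap 1.0 of the range), and Fabp1 likewise at 0.22 TPM in LPS + UDCA replicate 2 only (gap 1.0). Impa1 was highest in LPS + UDCA replicate 4, at 18.52 TPM (gap 0.936). Lyz2 was lowest in LPS replicate 1, at 1848.05 TPM (gap 0.923 of the range). Fcgr1 was highest in LPS + UDCA replicate 2, at 120.85 TPM (gap 0.838). Ccl2 was highest in LPS replicate 4, at 1270.01 TPM (gap 0.881), and lowest in LPS + UDCA replicate 1, at 92.51 TPM (gap 0.855).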

How the results depend on the processing

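Over 577 values of 39 named genes under other settings, 1 changed direction, that of Gm37421 without LPS replicate 4 (-0.60, from 1.94, with 2.998 as the highest value on leaving out a library). Fabp4 had a log2 fold change between -5.94 (pseudocount 0.1) and -4.73, Fabp5 between -3.68 and -3.49, Msr1 between -0.74 and -0.54, Scarb1 between -0.72 and -0.57, Cd36 between -0.23 and -0.088, Plin2 between 0.52 and 0.74 and Lpl between 0.62 and 0.80. For Fabp5, Cd36, Msr1, Scarb1, Plin2 and Lpl the outer values came mostly from median-of-ratios scaling and quantile normalization, which moved the median of all genes from 0.082 to -0.016 and 0.051. With at least 1 TPM required in every library, Fabp4 was no longer among the genes tested and 1 of the 9 genes was called lower. Dropping the fold change minimum called 4 of the 9 lower and 2 higher, and 3807 of all 11796 genes tested lower and 4741 higher.

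Of the list genes, 5 were lower when 1 TPM was required in every library and 31 without the fold change minimum. The higher ones numbered 3 with quantile normalization, 2 with median-of-ratios scaling and 32 without the minimum. Over all 11796 genes tested, the main fit called 995 lower and 1028 higher. Median-of-ratios scaling called 1167 lower and 810 higher, and quantile normalization 1088 and 874. A pseudocount of 0.1 gave 1232 and 1444, and requiring 1 TPM in every library gave 788 and 763 of fewer genes tested. Within single lists, median-of-ratios scaling gave 2 lower PPAR cofactors, 5 lower and 0 higher PPAR targets, 1 lower and 1 higher droplet gene and 0 higher efflux genes. Quantile normalization gave 1 higher PPAR target, 1 lower transport gene, 1 higher droplet gene and 0 higher efflux genes. Requiring 1 TPM in every library, 0 FABP family genes, 0 PPAR cofactors and 1 PPAR target were lower. Fabp3, Ppargc1b and Cyp27a1 were then no longer among the genes tested, with lowest UDCA values of 0.57, 0.35 and 0.96 TPM. With a pseudocount of 0.1, 3 PPAR cofactors were higher, 3 lipase regulators were lower and 1 was higher, and 3 efflux genes were lower. Without the minimum, lower and higher genes numbered 4 and 6 for PPAR cofactors, 9 and 5 for PPAR targets, 5 and 3 for transport, 3 and 9 for droplets, 6 and 2 for lipase regulators and 5 and 4 for efflux, and 4 receptors were higher. The causes were not tested. Leaving out each library in turn, higher genes numbered 1 to 2 for PPAR cofactors (2 without LPS replicate 4 or LPS + UDCA replicate 2), 1 to 2 for PPAR targets and 0 to 1 for efflux (fewer without LPS replicate 2 or LPS + UDCA replicate 1), 0 to 1 for transport (1 without replicate 1 of either group) and 0 to 1 for lipase regulators (1 without LPS replicate 2 or 3 or LPS + UDCA replicate 3). Lower lipase regulators numbered 0 to 1 (1 without LPS + UDCA replicate 4). On leaving out a library, 972 to 1033 of all genes tested were lower and 959 to 1122 higher. Nr1h3 was under the fold change minimum without LPS replicate 2 (0.95) or LPS + UDCA replicate 1 (1.00), and Lpin1 without replicate 3 or 4 of LPS or 2 or 3 of LPS + UDCA (0.96 to 0.99). Rxra passed it with a pseudocount of 0.1 (1.58) and without LPS replicate 4 (1.04) or LPS + UDCA replicate 2 (1.05). Nr1h3, Me1 and Lpin1 were also under it with median-of-ratios scaling (0.95, 0.92 and 0.90), and Nr1h3, Lpin1 and Dbi with quantile normalization (0.97, 0.94 and -0.96). Lpin3 was under it with either (0.99).

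The groups share replicate numbers. Same-numbered libraries deviated together by correlations of 0.12, 0.12, -0.035 and 0.15 for replicates 1 to 4. Libraries of different numbers gave -0.14 to 0.16. These values do not settle whether the numbers pair the libraries, and the main fit took them as unpaired. With a replicate block in the fit, 2 of the 9 genes were lower and 0 higher, as without it. The 4 libraries per group and the unknown depth limit the values near 0, above all Fabp4 with UDCA, Pparg and Olr1.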
